A study of Mus musculus with 8 samples.

Results

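Rad9 deletion was examined in mouse embryonic stem cells (mESCs) by comparing the 4 libraries of Rad9-/- cells (R9del) with the 4 libraries of wild-type cells (R9wt), which are all 8 libraries of the series. Each genotype gave 1 library from the ground after 1 day (ground D1), 1 from the ground after 5 days (ground D5), 1 from space after 1 day (space D1) and 1 from space after 5 days (space D5). Each R9del library thus had an R9wt partner of the same location and day, and a gene was followed through these 4 pairs. The space cultures flew on a recoverable satellite, and the ground cultures were kept in a payload of the same kind, which had no controller for O2 or CO2. The D1 and D5 devices formed separate groups. For D5, R9del cells were seeded at a higher number than R9wt cells, so genotype and seeding number cannot be told apart at D5. The cells were fixed in RNAlater, RNA was taken up in TRIzol, and the mRNA libraries were read as paired ends. The labels name 1 type of cell per genotype, so the deletion cannot be told apart from any other difference between the wild-type and the deleted cells. In the study's methods each space condition had its own culture device, and the ground cultures followed the same procedure. Each condition holds 1 library, so the p-values below measure the spread among the 4 libraries of a genotype, over which location and day also varied.

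Rad9a encodes a subunit of the 9-1-1 clamp, a ring of Rad9, Hus1 and Rad1 that Rad17 loads onto DNA at lesions and stalled forks. There the clamp recruits Topbp1, which switches on the ATR kinase, and ATR in turn activates Chek1 to hold the cell cycle. mESCs are pluripotent cells held in self-renewal by the factors Pou5f1, Sox2 and Nanog. Signals of LIF and BMP sustain that state, while FGF acting through ERK moves the cells towards differentiation. In such cultures rare cells pass through a state that resembles the 2-cell embryo and is marked by the Zscan4 genes.

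Library totals lay between 58238440 and 96416907 counts. Levels are given in CPM, a gene's counts scaled to a common library total, after TMM scaling, and groups of 4 values are always in the order ground D1, ground D5, space D1 and space D5. All 10 ES cell markers were detected, and their summed level was 5380 to 8640 CPM in R9wt and 5790 to 6700 CPM in R9del. The markers of fibroblasts and feeders summed to 40.2 to 61.7 CPM in R9wt and 26.7 to 51.9 CPM in R9del, and those of blood cells to 11.4 to 23.1 and 13 to 18.4 CPM. The primitive endoderm markers summed to 25.1 to 190 CPM in R9wt and 68.8 to 360 CPM in R9del, the trophoblast markers to 32.7 to 354 and 39.3 to 86.1 CPM, the mesoderm markers to 8.14 to 118 and 22 to 69.5 CPM, and the neural markers to 15.3 to 29.2 and 17.4 to 37.4 CPM. None of the marker genes that were tested passed the test between genotypes. Tested were 6 of 10 fibroblast and feeder, 7 of 8 blood cell, 5 of 6 trophoblast and 3 of 5 neural markers, and all of the others. In bulk RNA, fewer cells of a type and less RNA per cell cannot be told apart.

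The deleted gene was checked first. Rad9a (chr19:4195198-4201603 in mm9, minus strand) was at 91.5, 83.8, 90.9 and 70.6 CPM in R9wt and at 23.6, 28.1, 20.9 and 27.5 CPM in R9del. The highest R9del library was under the lowest R9wt library, and the 4 ratios on the log2 scale were -1.95, -1.58, -2.12 and -1.36. The level fell 3.37-fold, with a log2 fold change of -1.75 (SE 0.21) and an adjusted p of 0.0277 in edgeR's quasi-likelihood test over all genes. An exact two-sided permutation test of the 4 against 4 values gave p = 0.0286, the smallest this design allows. The counts cover the whole gene, so they do not show which exons the remaining reads of the R9del libraries came from, and 10.9% of the exon bases overlap the neighbouring gene Ppp1ca.

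No other gene of the clamp passed the test. Rad1, a clamp subunit, was at 86.1, 63.9, 52.8 and 58 CPM in R9wt and at 78, 49.5, 38.4 and 69.3 CPM in R9del. Hus1, the other subunit, was at 26.4, 15.8, 30.8 and 21.3 CPM in R9wt and at 25, 30.8, 28.3 and 31.1 CPM in R9del, and Rad9b, the paralogue of Rad9a, at 27.5, 16.1, 21.7 and 37.2 CPM in R9wt and at 26.4, 27, 29.1 and 22.3 CPM in R9del. In all of these the groups overlapped, and the adjusted p-values were 0.806 for Rad1, 0.581 for Hus1 and 0.967 for Rad9b. A part of the exons of Rad9b (34.3% of the bases) overlaps another gene, so its reads are less certain. Rad17, the clamp loader, lay at 53.9 to 69.7 CPM in R9wt and 56.3 to 72.7 CPM in R9del, and Chek1, the kinase downstream of ATR, at 22.6 to 29.4 CPM in R9wt and 22 to 35.5 CPM in R9del. Topbp1, the ATR activator that the clamp recruits, was lower in all 4 pairs at 124, 142, 185 and 134 CPM in R9wt and at 106, 104, 130.1 and 115 CPM in R9del (adjusted p = 0.345). Etaa1, which activates ATR without the clamp, was higher in all 4 pairs at 31.3, 8.09, 11.8 and 14.4 CPM in R9wt and at 67.1, 51.4, 41 and 28.3 CPM in R9del, although ground D1 of R9wt overlapped the R9del range. Its log2 fold change was 1.52 (SE 0.44) with an adjusted p of 0.103, and 0.0245 once the matched pairs entered the fit as a block. Hus1b, the germ cell paralogue of Hus1, was between 0.365 and 0.796 CPM in R9wt and between 0.843 and 1.83 CPM in R9del (adjusted p = 0.204). Of the 21 genes of the clamp and ATR arm, only Rad9a passed the test without the block, and the median log2 fold change of the 21 was 0.09.

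Of 20473 genes tested, 242 (1.18%) were higher and 174 (0.85%) were lower in R9del. A gene is named called here and below when its Benjamini-Hochberg adjusted p was under 0.05 and its fold change 2 or more. All 416 (2.03%) moved in 1 direction in all 4 pairs and did not overlap between genotypes, and 211 of those called higher and 124 of those called lower differed at least 2-fold in each pair. Over all genes tested, 20.1% were higher and 18.3% were lower in all 4 pairs (38.3% in 1 direction), 2.75% were at least 2-fold higher and 1.83% at least 2-fold lower in all 4, and 7.32% lay above and 6.89% below without overlap. At an unadjusted p under 0.05 and the same fold, 1304 genes (6.37%) were higher and 1512 (7.39%) lower. Of the genes called, 149 of those higher and 156 of those lower reached the minimum of the low-count filter, 0.15 CPM, in all 4 libraries of both genotypes (0.902% and 0.945% of the 16514 genes that did so). A gene that reached it in 1 genotype only was kept through the group where it was high, so the counts and medians of gene lists below cover only members that reached it in both. Their shares are to be read against those over the 16514 genes: 19.6% were higher and 19.5% lower in all 4 pairs, 4.95% were higher and 7.36% lower at an unadjusted p under 0.05 with a fold of 2, the block described next called 3.34% higher and 3.65% lower, and DESeq2's Wald test called 3.23% higher and 4.83% lower. In the list paragraphs below, a share of all genes is a share of these 16514 genes. Entering the 4 matched pairs as a block gave 742 genes (3.62%) higher and 660 (3.22%) lower, and 414 of the 416 were among them. The adjusted p-values sat close to the threshold: in 4 of the 8 fits that left out 1 library (R9wt ground D5, R9wt space D1, R9del ground D1 or R9del space D1) no gene was called and the smallest adjusted p lay between 0.0653 and 0.0863, while 411 to 413 of the 416 kept their sign, a fold of 2 and an unadjusted p under 0.05. Of the genes called higher, 74 (30.6%) carried no symbol in the annotation used here, against 8 (4.6%) of those called lower and 14.5% of all genes tested.

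**Figure D1:**
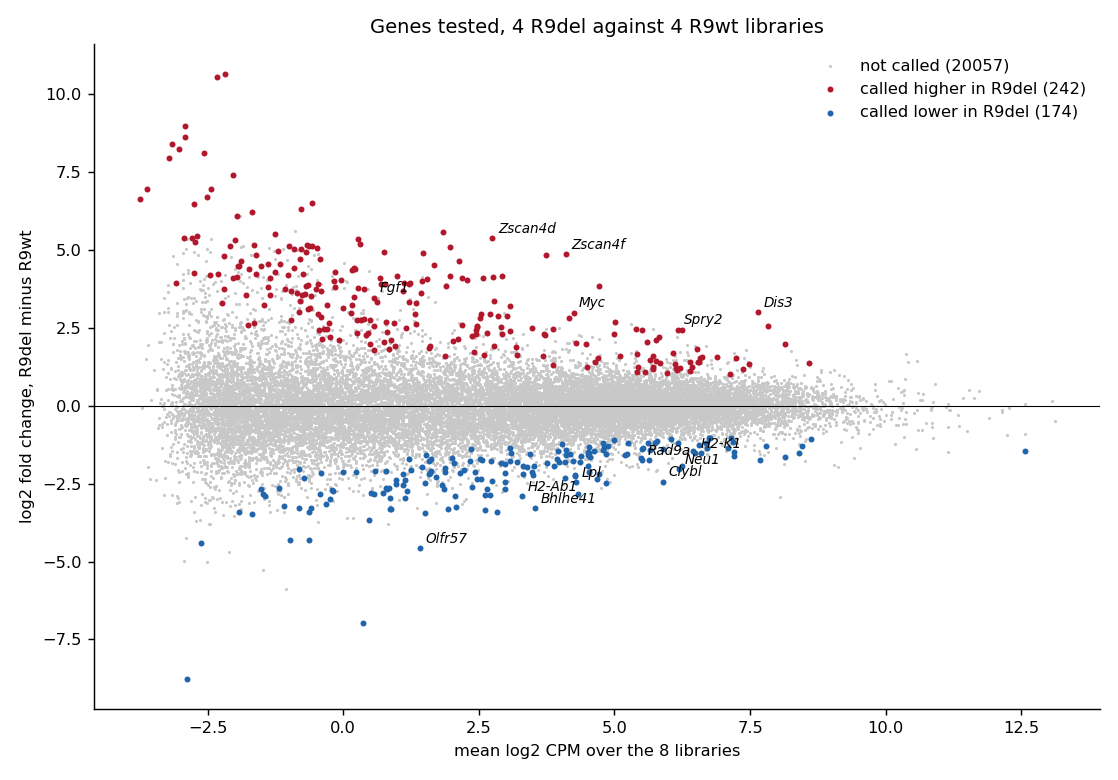
Log2 fold change of R9del against R9wt (vertical axis) against the mean log2 CPM over the 8 libraries (horizontal axis) for the 20473 genes tested. Red points are the 242 genes called higher in R9del, blue points the 174 called lower and grey points the rest; the largest fold changes among the genes called higher are those of low mean level.

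The list of the 2-cell-like state holds genes transcribed in the 2-cell embryo and in rare mESCs, and 13 of its 21 genes passed the filter on low counts. Of the 13, 5 (Zfp352, Tdpoz3, Tdpoz4, Usp17la and Zscan5b) reached the filter's minimum in all 4 libraries of R9del but not of R9wt, so they were kept because R9del was high and their direction is no result. The other 8 reached it in both genotypes. All 8 were higher in R9del in all 4 pairs, against 19.6% of the genes that reached it in both, and 5 were called, among them Zscan4c, Zscan4d, Zscan4f and Usp17lc, against 0.902%. Their median log2 fold change was 3.92, beside -0.06 over the genes that reached it in both. The pair medians of the 8 were 4.22, 2.62, 5.97 and 1.51. The 3 Zscan4 genes of the table, which encode zinc finger proteins that act on telomeres and chromatin, sit in 1 cluster on chromosome 7. Their promoters are printed here because they are nearly the same sequence. Each line gives 300 bases from RefSeq in build GRCm38.p6, from 250 bases before the start of the gene to 50 after it, and the capitals mark the longest stretch of 55 bases that all 3 share. Zscan4c lies at chr7:11005495-11005794 on the plus strand, Zscan4d at chr7:11166099-11166398 on the minus strand and Zscan4f at chr7:11397665-11397964 on the plus strand.
Zscan4c: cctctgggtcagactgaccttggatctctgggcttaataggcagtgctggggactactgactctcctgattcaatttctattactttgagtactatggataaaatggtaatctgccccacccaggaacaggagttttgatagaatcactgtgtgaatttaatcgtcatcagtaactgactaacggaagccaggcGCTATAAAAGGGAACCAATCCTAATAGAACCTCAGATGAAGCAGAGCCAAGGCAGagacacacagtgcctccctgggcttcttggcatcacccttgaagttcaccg
Zscan4d: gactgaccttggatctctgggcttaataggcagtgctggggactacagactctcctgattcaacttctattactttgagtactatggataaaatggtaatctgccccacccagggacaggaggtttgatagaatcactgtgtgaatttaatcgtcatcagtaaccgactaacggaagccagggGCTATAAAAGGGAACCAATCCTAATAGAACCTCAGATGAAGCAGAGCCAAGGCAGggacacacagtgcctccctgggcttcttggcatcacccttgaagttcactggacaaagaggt
Zscan4f: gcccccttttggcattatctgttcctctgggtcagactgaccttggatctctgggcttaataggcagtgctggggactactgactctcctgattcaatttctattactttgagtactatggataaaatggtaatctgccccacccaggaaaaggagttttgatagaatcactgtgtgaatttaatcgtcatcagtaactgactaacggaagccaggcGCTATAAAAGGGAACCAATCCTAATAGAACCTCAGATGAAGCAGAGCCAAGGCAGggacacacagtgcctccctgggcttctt
Aligned bases were identical to 97.2% between Zscan4c and Zscan4d, 99.3% between Zscan4c and Zscan4f and 97.4% between Zscan4d and Zscan4f. The transcripts are alike as well: 78.7% of the 50-base stretches of Zscan4c, 47.2% of Zscan4d and 89.6% of Zscan4f also occur in other genes, so the counts could have been split among copies and each gene's own level is uncertain.

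Zscan4c was at 2.55, 3.02, 2.36 and 4.44 CPM in R9wt and at 68.8, 29.6, 234 and 24.5 CPM in R9del. Zscan4d was at 1.58, 0.709, 1.75 and 1.2 CPM in R9wt and at 41.2, 16.2, 143 and 16.9 CPM in R9del. Zscan4f was at 3.25, 4.22, 3.12 and 5.3 CPM in R9wt and at 90.1, 37.9, 301 and 32.9 CPM in R9del. In each of these genes the R9wt libraries lay close together, every R9del library lay above them, and R9del space D1 was the highest, with R9del ground D1 next and both D5 libraries lowest. The log2 fold changes were 4.85 (SE 0.76) for Zscan4c, 5.38 (SE 0.80) for Zscan4d and 4.86 (SE 0.74) for Zscan4f, with adjusted p-values of 0.0327, 0.0317 and 0.0317. In fits that each left out 1 library they lay at 3.71 to 5.16, 4.22 to 5.68 and 3.74 to 5.17. The adjusted p-values of the same test then lay at 0.0313 to 0.103 in each gene. The same order of the libraries was seen in Usp17lc, a deubiquitinase gene of another multicopy family, at 0.308, 0.73, 0.319 and 1.04 CPM in R9wt and at 10.6, 3.17, 26.4 and 2.76 CPM in R9del (adjusted p = 0.0418). For Usp17lc, 44.2% of the 50-base stretches also occur in other genes, so its own level is uncertain. Zfp352, a zinc finger gene, had 4, 0, 10 and 9 counts in R9wt and 485, 90, 1173 and 77 counts in R9del, and Tdpoz3, of the TD and POZ domain family, 0, 0, 0 and 3 and 83, 24, 217 and 20 counts. The R9wt libraries of both held at most 10 counts, so no fold or p is given.

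In a further 4 members R9del space D1 was the highest and R9del ground D1 the next. Tmem92 lay at 0.196 to 1.5 CPM in R9wt and 2.71 to 20.1 CPM in R9del (adjusted p = 0.063, 0.0337 with the block) and Sp110 at 0.182 to 0.426 CPM in R9wt and 0.445 to 3.66 CPM in R9del (adjusted p = 0.0934). Usp17la lay at 0.0797 to 1.05 CPM in R9wt and 2.18 to 21.9 CPM in R9del and Tdpoz4 at 0 to 0.109 CPM in R9wt and 0.171 to 3.17 CPM in R9del, with no p given because the filter kept them through R9del. Eif1a, an abundant translation factor, was at 146 to 291 CPM in R9wt and 315 to 358 CPM in R9del (log2 fold change 0.55), and Zscan5b was the remaining member. Without R9del space D1 the median of the 8 members at the minimum in both genotypes was 2.90, and over all 8 fits that each left out 1 library it lay between 2.90 and 4.58.

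**Figure D2:**
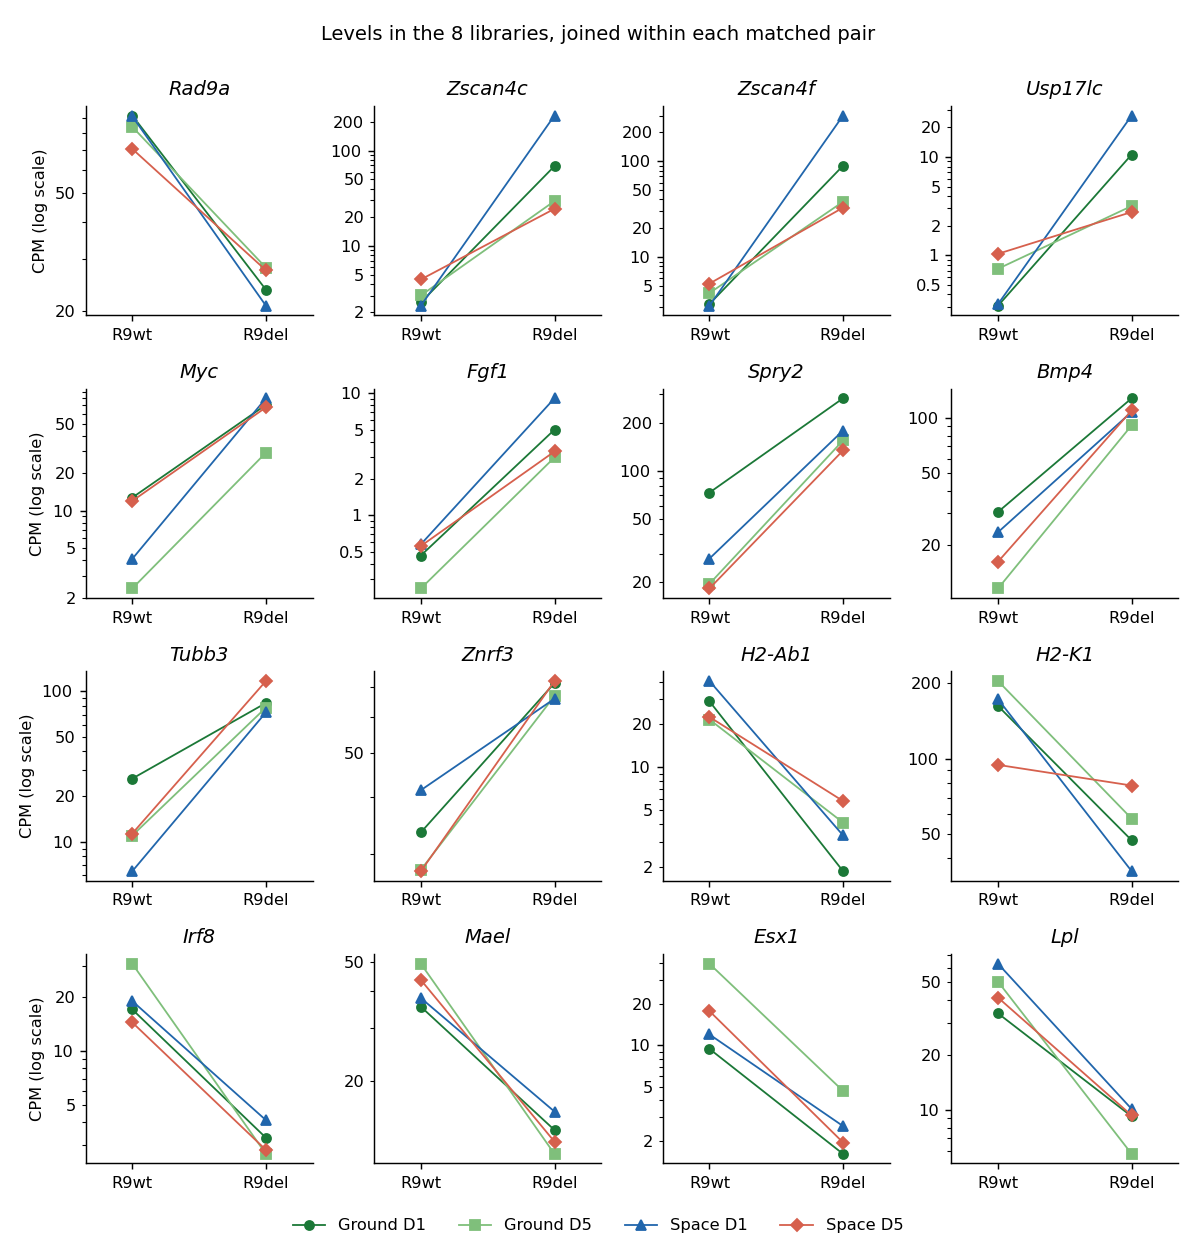
CPM on a log scale (vertical axes, each panel with its own range) of 16 genes in R9wt and R9del. Each point is 1 library, and lines join the R9wt and R9del library of 1 pair (colours and shapes: ground D1, ground D5, space D1 and space D5). All 16 genes were called, and in each the 4 lines run in 1 direction, as in every called gene. The R9del space D1 library is the highest of Zscan4c, Zscan4f and Usp17lc.

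The core pluripotency factors did not separate the genotypes. Pou5f1 was at 1767, 964, 991 and 963 CPM in R9wt and at 1604, 1419.9, 1389 and 1573 CPM in R9del. Sox2 was at 249, 147, 86.1 and 126 CPM in R9wt and at 197, 223, 96.3 and 117 CPM in R9del, and Nanog at 396, 229.99, 211 and 646 CPM in R9wt and at 278, 333, 436 and 663 CPM in R9del. The libraries of both genotypes overlapped in each gene, and the adjusted p-values were 0.45, 0.947 and 0.815. Klf4 (log2 fold change -0.53) and Esrrb (-0.23), naive factors that support self-renewal, overlapped too, with adjusted p-values of 0.379 and 0.808. Zfp42 (Rex1), a marker of the naive state, was higher in all 4 pairs at 609, 218, 85.6 and 116 CPM in R9wt and at 712, 779.98, 857 and 211 CPM in R9del, but its R9wt ground D1 library exceeded R9del space D5 (adjusted p = 0.277).

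No gene of the general or the naive pluripotency list passed the test without the block. Of 16 genes shared by naive and primed cells, 8 were higher and 1 was lower in all 4 pairs (19.6% and 19.5% of all genes), 0 were called (3 higher at an unadjusted p under 0.05), and the median log2 fold change was 0.56. Dppa2, a chromatin factor that with Dppa4 opens early embryonic genes, was at 32.2, 5.09, 10.8 and 22.7 CPM in R9wt and at 79.8, 66.6, 78.9 and 65.9 CPM in R9del, with no overlap (adjusted p = 0.0653, 0.0204 with the block). L1td1, an RNA-binding protein of ES cells, lay at 24.3 to 219 CPM in R9wt and 279 to 393 CPM in R9del (adjusted p = 0.229). In the naive list of 20 genes, 9 were higher and 2 lower in all 4 pairs, 0 were called, 3 higher and 2 lower passed an unadjusted p under 0.05 with a fold of 2, and the block called 4 higher and 1 lower (3.34% and 3.65% of all genes). DESeq2's Wald test called 3 of the naive and 2 of the general genes, all higher (3.23% of all genes). Nr0b1 (Dax1), a nuclear receptor that restrains Pou5f1, was at 65.1, 17.9, 11.4 and 12.9 CPM in R9wt and at 268, 135, 89.4 and 97.8 CPM in R9del (adjusted p = 0.0715, 0.00413 with the block). Gbx2, a homeobox target of LIF, was at 16.3, 1.71, 0.745 and 0.889 CPM in R9wt and at 85.3, 38.2, 18.2 and 11.5 CPM in R9del (adjusted p = 0.167, 0.00802 with the block), and 32.4% of its exon bases overlap another gene. Zfp57, which keeps imprints methylated, was at 185 to 429.9 CPM in R9wt and 532 to 835 CPM in R9del (log2 fold change 1.07, adjusted p = 0.0882, 0.016 with the block). On the same list were lower values in R9del for Dppa3 (Stella), a maternal factor, at 6.11, 47.1, 5.14 and 18 CPM in R9wt and at 3.5, 10.5, 2.94 and 3.2 CPM in R9del (adjusted p = 0.19, 0.0397 with the block), and Dppa5a, an RNA-binding protein of ES cells, at 2021 to 4491 CPM in R9wt and 956 to 2023 CPM in R9del with a ratio of 0.00 at space D5 (adjusted p = 0.133). For Dppa5a, 54.6% of the 50-base stretches also occur in other genes, so its own level is uncertain.

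Few lineage genes were called. The formative and primed list of 17 genes had 4 members higher and 3 lower in all 4 pairs, and 0 were called (1 higher and 2 lower at an unadjusted p under 0.05, 0 by DESeq2's Wald test). Dnmt3b, a de novo DNA methyltransferase, was higher in each pair at 87.7, 61.3, 60.5 and 48.2 CPM in R9wt and at 169, 103, 116 and 87 CPM in R9del (log2 fold change 0.89, adjusted p = 0.121, 0.0216 with the block). Fgf15 lay at 4.81 to 29.6 CPM in R9wt and 23.2 to 47.8 CPM in R9del (adjusted p = 0.184, 0.0218 with the block), Zic5 at 4.64 to 28.3 CPM in R9wt and 3.66 to 7.07 CPM in R9del (adjusted p = 0.174), Sfrp2, a secreted Wnt antagonist, at 3.57 to 36.1 CPM in R9wt and 2.05 to 9.1 CPM in R9del (adjusted p = 0.205, 0.0203 with the block) and Fgf5 at 0 to 2.81 CPM in R9wt and 0.429 to 1.92 CPM in R9del, with no p given because the filter kept it through R9del. Among 14 primitive streak and mesendoderm genes only Bmp4 was called. Of the 14, 3 were higher and 3 lower at an unadjusted p under 0.05, and DESeq2's Wald test called 3 higher and 1 lower. T (Brachyury), the mesoderm factor, was lower in each pair at 1.89, 2.39, 0.897 and 1.18 CPM in R9wt and at 0.729, 0.697, 0.443 and 1.03 CPM in R9del (adjusted p = 0.204). Tbx6 lay at 1.83 to 4.02 CPM in R9wt and 0.684 to 1.55 CPM in R9del and Eomes at 9.92 to 31.3 CPM in R9wt and 4.62 to 14.1 CPM in R9del, while Lhx1 lay at 0.164 to 0.228 CPM in R9wt and 0.429 to 0.638 CPM in R9del and Kdr, the VEGF receptor of early mesoderm, at 0.289 to 1.42 CPM in R9wt and 1.66 to 6.11 CPM in R9del. These 4 had adjusted p-values of 0.091, 0.231, 0.107 and 0.0932, and the block called Tbx6 lower (adjusted p = 0.045).

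Of 19 primitive endoderm genes 0 were called (1 higher at an unadjusted p under 0.05 and 1 higher by DESeq2's Wald test). The gene with an unadjusted p under 0.05, Sox7, was at 1.22, 0.316, 0.821 and 8.66 CPM in R9wt and at 9.25, 6.9, 16.3 and 26.1 CPM in R9del, higher in each pair (adjusted p = 0.191, 0.016 with the block), whereas Gata6, the master factor of the lineage, was at 3.13, 4.51, 1.84 and 13.2 CPM in R9wt and at 4.62, 4.46, 4.22 and 14.6 CPM in R9del (adjusted p = 0.84). Of 16 trophoblast genes Esx1, an X-linked homeobox gene of the placenta, was called. Esx1 was at 9.43, 39.5, 12 and 17.8 CPM in R9wt and at 1.61, 4.65, 2.57 and 1.95 CPM in R9del, below R9wt in every pair and without overlap (log2 fold change -2.87, adjusted p = 0.0414). Plac1, another placental gene, was at 0.444, 1.08, 0.106 and 41.8 CPM in R9wt and at 0.912, 5.57, 1.77 and 2.14 CPM in R9del, with R9wt space D5 far above the rest and no p given because R9del alone reached the filter's minimum in all 4 libraries. Bmp8b, a BMP ligand of the extraembryonic ectoderm, lay at 4.73 to 25.1 CPM in R9wt and 4.04 to 6.7 CPM in R9del (adjusted p = 0.215). The trophoblast list's median was -0.96, but its pair medians were 0.65, -0.31, 1.3 and -1.96. Of 7 early neural genes Tubb3, the neuronal beta-tubulin, was called. Tubb3 was at 26.3, 11, 6.35 and 11.3 CPM in R9wt and at 83.7, 78, 72.5 and 117 CPM in R9del, with every R9del library above every R9wt library (log2 fold change 2.68, adjusted p = 0.0328). Ncam1, a neural adhesion molecule, lay at 11.7 to 35.8 CPM in R9wt and 40.2 to 158 CPM in R9del (adjusted p = 0.0876, 0.0146 with the block).

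One germ cell gene, Mael, fell in R9del. Of 21 genes that promoter methylation keeps silent in somatic cells, 11 were lower and 2 higher in all 4 pairs (19.5% and 19.6% of all genes), and the median log2 fold change was -0.96. Mael, a factor of the piRNA pathway that silences transposons, was called: it was at 35.4, 49.3, 37.8 and 43.5 CPM in R9wt and at 13.7, 11.4, 15.8 and 12.5 CPM in R9del, with no overlap between genotypes (log2 fold change -1.64, adjusted p = 0.0317). Of the 21, 9 were lower and 1 higher at an unadjusted p under 0.05, and DESeq2's Wald test called 7 lower. With the block 6 were called lower (3.65% of all genes). Among them Ddx4 (Vasa), the germ cell RNA helicase, was at 26.9, 30.5, 49.6 and 40.1 CPM in R9wt and at 14.1, 15.1, 23.8 and 8.44 CPM in R9del (adjusted p = 0.0919, 0.0303 with the block), and Brdt, a testis bromodomain protein, at 2.05 to 6.66 CPM in R9wt and 0.89 to 1.25 CPM in R9del (adjusted p = 0.0572, 0.0359 with the block). Zcwpw1, a meiotic histone reader, lay at 47.1 to 109.7 CPM in R9wt and 13.5 to 36.3 CPM in R9del (adjusted p = 0.0876, 0.0148 with the block). Sycp3, of the meiotic chromosome axis, was at 19.3, 144, 7.05 and 11.1 CPM in R9wt and at 7.87, 19.9, 4.07 and 1.78 CPM in R9del (adjusted p = 0.227, 0.0279 with the block), and 52.2% of its exon bases overlap another gene. Hormad1, a meiotic axis protein, went the other way at 2.6 to 8.31 CPM in R9wt and 3.13 to 22.4 CPM in R9del (adjusted p = 0.217).

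Hox genes, which pattern the body axis, were at low levels. The filter's minimum was reached in all 4 libraries of both genotypes by 8 of the 19 tested, and of R9wt alone by 5, so the direction of those 5 is no result. The 8 had a median log2 fold change of -0.83, and 4 of them were lower and 0 higher in all 4 pairs (19.5% and 19.6% of the genes that reached it in both). Of the 8, 0 were called, 3 were lower at an unadjusted p under 0.05 and by DESeq2's Wald test, and the block called 2. Hoxb13, one of the 8, was at 9.85, 1.99, 6.32 and 4.74 CPM in R9wt and at 1.5, 1.88, 1.29 and 1.83 CPM in R9del, and all R9del libraries lay below all R9wt libraries (adjusted p = 0.0778). Hoxa9, at 0.353, 1.95, 1.11 and 0.23 CPM in R9wt and at 0.182, 0.188, 0.143 and 0.12 CPM in R9del, and Hoxd8, at 0.752 to 1.45 CPM in R9wt and 0.076 to 0.75 CPM in R9del, are among the 5 kept through R9wt, and no p is given for them.

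Of 24 imprinted genes, which are read from 1 parental allele, Zrsr1 was called. Zrsr1, a splicing factor gene that is read from the paternal allele, was at 6.81, 4.92, 4.41 and 7.75 CPM in R9wt and at 28.2, 38.2, 27.4 and 23.2 CPM in R9del and did not overlap (log2 fold change 2.29, adjusted p = 0.0277). Mest lay at 160.2, 61.6, 23.1 and 15.1 CPM in R9wt and at 558, 223, 124 and 80.8 CPM in R9del, higher in every pair (adjusted p = 0.218, 0.00518 with the block), and Plagl1 at 0.137 to 1.21 CPM in R9wt and 1.25 to 4 CPM in R9del, with no p given because the filter kept it through R9del. Grb10, a growth restraining adaptor, was lower in every pair at 111, 39.9, 122 and 209.8 CPM in R9wt and at 13.8, 9.72, 48.1 and 47.9 CPM in R9del (adjusted p = 0.118, 0.0105 with the block), and Dlk1 at 1.51 to 15.5 CPM in R9wt and 0.651 to 3.75 CPM in R9del (adjusted p = 0.216). H19, a non-coding RNA, lay at 2.11 to 57.9 CPM in R9wt and 11.5 to 83 CPM in R9del and Meg3, another, at 167 to 561 CPM in R9wt and 175 to 462 CPM in R9del (adjusted p = 0.91 and 0.928). Phlda2 lay at 41.3 to 97.5 CPM in R9wt and 24.2 to 51.9 CPM in R9del (adjusted p = 0.144, 0.0328 with the block). The block called 3 of the imprinted genes higher and 2 lower (3.34% and 3.65% of all genes).

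FGF signalling and its feedback loop held 3 genes that rose in R9del. Of 27 genes, 13 were higher and 5 lower in all 4 pairs (19.6% and 19.5% of all genes), 3 were called higher and 0 lower (0.902% and 0.945% of all genes), and the median log2 fold change was 0.58. Fgf1, a ligand, was at 0.467, 0.251, 0.578 and 0.559 CPM in R9wt and at 5.04, 2.99, 9.13 and 3.34 CPM in R9del (log2 fold change 3.47, adjusted p = 0.0317). Spry2, an inhibitor that ERK induces, was at 72.8, 19.5, 28.1 and 18.2 CPM in R9wt and at 284, 155, 178 and 134 CPM in R9del (log2 fold change 2.44, adjusted p = 0.0415), and Spred2, a related inhibitor, at 54.9, 26.4, 46.6 and 51.1 CPM in R9wt and at 119, 133, 105 and 96.9 CPM in R9del (log2 fold change 1.34, adjusted p = 0.0415). In all 3 every R9del library exceeded every R9wt library. Dusp6, the phosphatase that removes phosphate from ERK, was at 65.5, 11, 69.1 and 59.4 CPM in R9wt and at 181, 92, 254 and 148 CPM in R9del without overlap (adjusted p = 0.115, 0.0154 with the block). Spry4 lay at 5.58 to 118 CPM in R9wt and 72.2 to 391 CPM in R9del, Fgf17 at 2.91 to 33.7 CPM in R9wt and 25.2 to 65.7 CPM in R9del and Egr1, an immediate early target, at 9.54 to 69.9 CPM in R9wt and 46.5 to 125 CPM in R9del, all higher in every pair, with adjusted p-values of 0.232, 0.21 and 0.239. The block called 8 of the list, all higher (3.34% of all genes), among them Spry4 (adjusted p = 0.0469) and Fgf17 (adjusted p = 0.0159).

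Myc, a transcription factor that drives growth and self-renewal, was at 12.7, 2.38, 4.1 and 12 CPM in R9wt and at 70.6, 29.2, 79.8 and 67.4 CPM in R9del. The lowest R9del library, ground D5, was still above the highest R9wt library, and the log2 fold change was 2.99 (SE 0.57) (adjusted p = 0.0415). Nr4a1, an immediate early nuclear receptor, was at 56.5, 68, 55.7 and 56.1 CPM in R9wt and at 126, 92.9, 279.8 and 179 CPM in R9del (log2 fold change 1.52, adjusted p = 0.0495). Both were called among 21 genes of the Myc network and the Mef2 factors, whose median was -0.21. Mef2d, a MADS box factor, was lower in each pair at 19, 3.51, 35.7 and 8.08 CPM in R9wt and at 1.32, 3.47, 1.67 and 1.44 CPM in R9del, with a ratio of -0.02 at ground D5 (log2 fold change -3.07, adjusted p = 0.0552, 0.0537 with the block).

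In the BMP list of 22 genes Bmp4 was called. Bmp4, the ligand that sustains naive mESCs together with LIF, was at 30.5, 11.6, 23.6 and 16.3 CPM in R9wt and at 129, 91.3, 108 and 110.3 CPM in R9del, without overlap (log2 fold change 2.42, adjusted p = 0.0277). Its target Id1, an inhibitor of differentiation factors, was at 33.3, 14.8, 21.3 and 10.1 CPM in R9wt and at 108, 39.7, 65.1 and 42 CPM in R9del (adjusted p = 0.08, 0.00854 with the block). Nodal, a TGF-beta ligand of the early embryo, was at 35.7, 9.06, 20.02 and 22.8 CPM in R9wt and at 68, 41.3, 72.2 and 58.8 CPM in R9del (adjusted p = 0.0841, 0.0159 with the block). Lefty1, an inhibitor of Nodal, was at 459.5, 7.09, 13 and 152 CPM in R9wt and at 374, 379, 112 and 302 CPM in R9del (adjusted p = 0.68). The list of 19 Nodal and Activin genes had 0 called (2 higher and 1 lower at an unadjusted p under 0.05, and 2 higher by DESeq2's Wald test), with 5 higher and 4 lower in all 4 pairs. In the Wnt list of 32 genes Znrf3, a ubiquitin ligase that removes Wnt receptors, was called: it was at 33.4, 27.6, 41.4 and 27.4 CPM in R9wt and at 71.4, 66.9, 65.9 and 72.1 CPM in R9del (log2 fold change 1.09, adjusted p = 0.0418). Wnt8a lay at 0.115 to 0.73 CPM in R9wt and 0.522 to 1.76 CPM in R9del, with no p given because the filter kept it through R9del. In the LIF and Stat3 list 0 of 14 were called (1 higher and 1 lower at an unadjusted p under 0.05, and 1 higher by DESeq2's Wald test). In the Hippo list of 21 genes Tead2, a partner of Yap, was called lower, at 131, 162, 179 and 145 CPM in R9wt and at 73.2, 96.9, 69.6 and 64.2 CPM in R9del (log2 fold change -1.02, adjusted p = 0.0451).

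Antigen presentation held 4 genes that fell in R9del. Of 20 genes, 9 were lower and 0 higher in all 4 pairs, against 19.5% and 19.6% of the genes that reached the filter's minimum in both genotypes. Of the 20, 4 were called lower, against 0.945% of those genes, and the median log2 fold change was -0.88. H2-Ab1, the beta chain of a class II molecule, was at 29.1, 21.7, 40.4 and 22.6 CPM in R9wt and at 1.87, 4.1, 3.33 and 5.8 CPM in R9del (log2 fold change -2.91, adjusted p = 0.0311). H2-K1, a class I heavy chain, was at 162, 204, 173 and 94.4 CPM in R9wt and at 47.3, 57.7, 35.6 and 78.1 CPM in R9del (log2 fold change -1.53, adjusted p = 0.0447). The genotypes overlapped in neither gene, although the ratio of H2-K1 at space D5 was only -0.27. H2-Q4 lay at 5.73 to 12.4 CPM in R9wt and 1.67 to 2.64 CPM in R9del (log2 fold change -2.18, adjusted p = 0.034) and H2-Q7 at 4.72 to 29.6 CPM in R9wt and 2.13 to 3.15 CPM in R9del (log2 fold change -2.67, adjusted p = 0.0407), and H2-Q2 and H2-Q6, not on the list, were called lower as well at 9.18 to 22.6 CPM in R9wt and 0.529 to 2.91 CPM in R9del and 3.24 to 14.9 CPM in R9wt and 0.856 to 2.49 CPM in R9del. The H2-Q genes resemble each other, and 24.1% of the 50-base stretches of H2-Q7 and 22.7% of H2-Q6 occur in other genes, so the split among them is uncertain. H2-DMa, which loads peptides on class II molecules, lay at 13.2 to 31.8 CPM in R9wt and 7.1 to 11.5 CPM in R9del (adjusted p = 0.063, 0.0456 with the block), Tap2, the peptide transporter, at 7.15 to 13.7 CPM in R9wt and 3.15 to 4.6 CPM in R9del (adjusted p = 0.0666, 0.0406 with the block) and B2m, the light chain of class I, at 10.1 to 55.1 CPM in R9wt and 6.62 to 19.1 CPM in R9del (adjusted p = 0.239).

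Irf8, an interferon regulatory factor of myeloid cells, was called lower outside the lists and was chosen after its values were seen, at 17.1, 30.7, 19 and 14.4 CPM in R9wt and at 3.28, 2.67, 4.12 and 2.81 CPM in R9del (log2 fold change -2.66, adjusted p = 0.0277). Among 24 genes of T helper cell differentiation, Il23a, the p19 subunit of interleukin 23, was called lower at 5.17, 13.3, 9.87 and 9.99 CPM in R9wt and at 2.99, 3.11, 3.24 and 1.93 CPM in R9del (log2 fold change -1.76, adjusted p = 0.0449). In the same list Cd80, a co-stimulatory ligand, was called higher at 1.55, 0.905, 0.806 and 0.954 CPM in R9wt and at 8.16, 8.93, 16.4 and 26.4 CPM in R9del (log2 fold change 3.82, adjusted p = 0.0277). The interferon response list of 20 genes had 0 called (2 higher and 2 lower at an unadjusted p under 0.05, and 1 higher by DESeq2's Wald test) and a median of -0.0083. Of 9 blood cell markers 0 were called (1 higher and 2 lower at an unadjusted p under 0.05, and 1 higher and 1 lower by DESeq2's Wald test), and Ptprc (CD45), the pan-leukocyte marker, was at 0 to 0.353 CPM in R9wt and 0.0536 to 0.851 CPM in R9del. The part of other cell types in these differences was not tested.

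**Figure D3:**
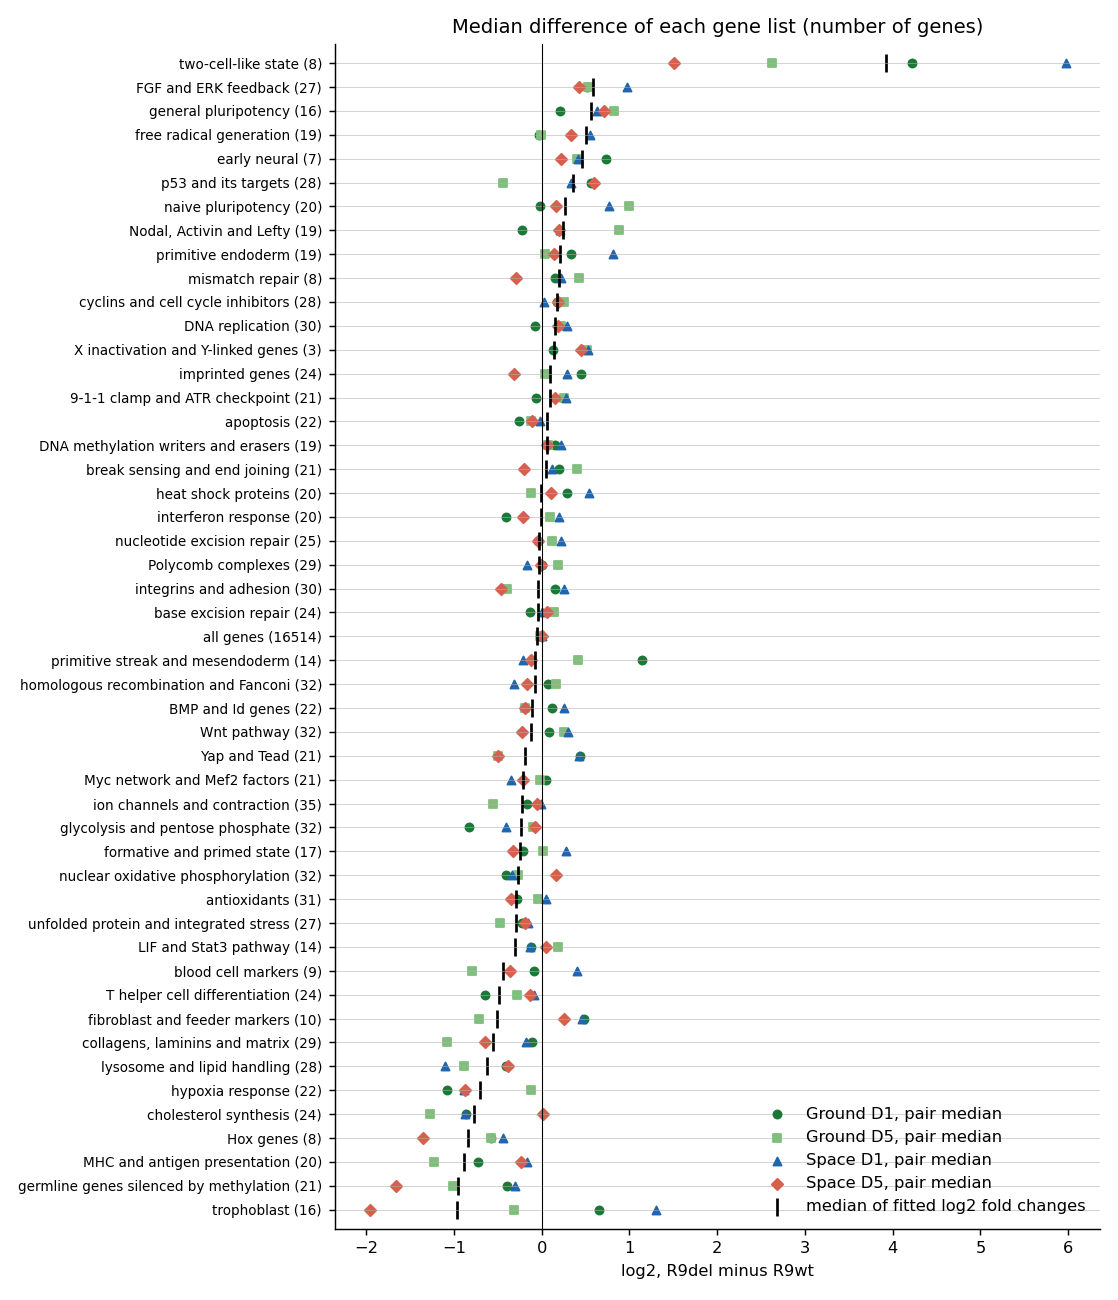
Median log2 difference between R9del and R9wt (horizontal axis) of 48 gene lists and of all genes (vertical axis), over genes that reached the filter's minimum in both genotypes (their number in brackets). Coloured points are the medians in each of the 4 pairs and black bars the medians of the fitted fold changes; the 2-cell-like list stands at 3.92, while the Hox, trophoblast, germline, antigen presentation and cholesterol lists have the lowest medians.

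The remaining medians of the lists above were 0.27 for the naive genes, -0.24 for the formative genes, -0.08 for the primitive streak, 0.46 for the early neural genes, 0.10 for the imprinted genes and 0.21 for the primitive endoderm. Among the signalling lists they were -0.11 for BMP, 0.24 for Nodal, -0.12 for Wnt, -0.30 for LIF and -0.19 for the Hippo list, and among the immune lists -0.48 for T helper differentiation and -0.44 for the blood markers. Over the genes that reached the filter's minimum in both genotypes, the block called 3.34% higher and 3.65% lower. It called 6 genes of antigen presentation lower, 1 higher and 3 lower of T helper differentiation, 2 higher of BMP, 5 higher and 1 lower of Wnt and 2 higher of Nodal and Activin. It also called 2 higher and 1 lower of the formative genes, 1 higher and 1 lower of the primitive streak, 3 higher of the primitive endoderm, 2 higher of the early neural genes, 2 higher of the interferon response and 1 higher and 1 lower of the blood markers. Among the stress and structural lists it called 2 higher and 1 lower of the heat shock genes, 2 higher and 2 lower of the unfolded protein response, 1 higher and 2 lower of the Polycomb genes, 3 lower of the channel genes, 1 higher and 3 lower of the matrix genes and 3 lower of the integrin and adhesion genes. Among the others it called 1 higher and 2 lower of the p53 list, 2 higher of the cyclins, 2 lower of base excision repair, 2 lower of homologous recombination, 1 higher and 2 lower of free radical generation, 1 lower of the antioxidants, 2 lower of glycolysis, 3 lower of cholesterol synthesis and 3 higher and 1 lower of the Myc network.

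The medians of the DNA repair lists lay between -0.08 and 0.19. They were -0.03 for 25 nucleotide excision repair genes, -0.04 for 24 base excision repair genes, 0.19 for 8 mismatch repair genes, -0.08 for 32 genes of homologous recombination and the Fanconi pathway and 0.05 for 21 genes of break sensing and end joining. In the first 3 lists 0 were called, and at an unadjusted p under 0.05 the numbers were 0, 3 (1 higher and 2 lower) and 0, of which DESeq2's Wald test called 2 lower. Ube2t, the ubiquitin-conjugating enzyme of the Fanconi pathway, was called lower, at 189, 383, 351 and 161 CPM in R9wt and at 73.4, 133, 70.03 and 77.7 CPM in R9del (log2 fold change -1.61, adjusted p = 0.0495). Polm, a polymerase of end joining, was called higher, at 10.6, 7.18, 9.52 and 10.4 CPM in R9wt and at 22.8, 22.1, 22.4 and 24.9 CPM in R9del (log2 fold change 1.29, adjusted p = 0.0407). Neither gene overlapped between genotypes. Rad54b, a recombination helicase, lay at 58.3 to 126 CPM in R9wt and 33.9 to 38.7 CPM in R9del (adjusted p = 0.0676, 0.0334 with the block). The glycosylases Neil2 and Neil3, which remove oxidised bases, were lower in each pair at 12.8 to 31.1 CPM in R9wt and 3.13 to 11.8 CPM in R9del and at 12.9 to 26.4 CPM in R9wt and 7.94 to 14 CPM in R9del (adjusted p = 0.0861 and 0.0866, 0.027 and 0.0331 with the block). Fen1, the flap nuclease, lay at 17 to 71.1 CPM in R9wt and 58.1 to 224 CPM in R9del (adjusted p = 0.161), and 84.2% of its exon bases overlap other genes.

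Trp53, which encodes p53, was higher in each pair and without overlap at 191, 127, 117 and 158 CPM in R9wt and at 215, 256, 241 and 243 CPM in R9del, at a log2 fold change of 0.69 (adjusted p = 0.118). Its target Cdkn1a (p21), a cell cycle inhibitor, was lower in each pair, with overlap, at 225, 1016, 351 and 369.6 CPM in R9wt and at 211, 305, 281 and 354 CPM in R9del (adjusted p = 0.346). Of 28 genes of the p53 list, which holds p53 targets, Trp53 itself and Cdkn2a, 0 were called (1 higher and 1 lower at an unadjusted p under 0.05, and 1 lower by DESeq2's Wald test). These were Sesn2, a stress sensor, at 80.4 to 185 CPM in R9wt and 142 to 396 CPM in R9del (adjusted p = 0.193, 0.0182 with the block), and Cdkn2a, the p16 and p19Arf gene, whose p19Arf acts upstream of p53, at 8.74 to 14.2 CPM in R9wt and 3.39 to 6.84 CPM in R9del (adjusted p = 0.0655, 0.0302 with the block). Among 22 genes of the Bcl2 family and caspases, Hrk, an activator of apoptosis, was called lower at 4.89, 10.7, 11.5 and 4.99 CPM in R9wt and at 1.49, 2.44, 1.46 and 2 CPM in R9del (log2 fold change -2.12, adjusted p = 0.0415), and Bik, of the same class, lay at 1.5 to 3.5 CPM in R9wt and 0.479 to 1.04 CPM in R9del (adjusted p = 0.0771). In 30 replication genes 0 were called, 0 passed an unadjusted p under 0.05 with a fold of 2, DESeq2's Wald test called 0, and the median was 0.15. Of 28 cyclins and cell cycle inhibitors 0 were called (1 higher at an unadjusted p under 0.05 and 1 by DESeq2's Wald test), that gene being Ccnd1, the G1 cyclin downstream of growth factors, at 85.9, 33.9, 53.6 and 30.03 CPM in R9wt and at 166, 87.4, 175 and 139.7 CPM in R9del (adjusted p = 0.0703, 0.0142 with the block).

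Of 31 antioxidant genes 10 were lower and 2 higher in all 4 pairs (19.5% and 19.6% of all genes), 0 were called (1 higher and 2 lower at an unadjusted p under 0.05, as with DESeq2's Wald test), and the median was -0.29. Gpx4, which protects membrane lipids from oxidation, was at 726, 1415, 638 and 818 CPM in R9wt and at 409.6, 542, 346 and 309 CPM in R9del (adjusted p = 0.0764, 0.0161 with the block). Gpx8 lay at 9.58 to 15.9 CPM in R9wt and 4.04 to 7.32 CPM in R9del (adjusted p = 0.0863), and Nqo1, a quinone reductase, at 9.61 to 29.98 CPM in R9wt and 33.4 to 44 CPM in R9del (adjusted p = 0.118). Among 19 genes of free radical generation Cybb, the catalytic subunit of the phagocyte NADPH oxidase, was called higher at 0.843, 0.382, 0.715 and 0.527 CPM in R9wt and at 4.5, 2.26, 2.26 and 2.96 CPM in R9del (log2 fold change 2.28, adjusted p = 0.0407). Its membrane partner Cyba was at 37.3, 155, 66.5 and 71.6 CPM in R9wt and at 13.3, 29.3, 17.5 and 24.6 CPM in R9del (adjusted p = 0.0545, 0.009 with the block).

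Lysosomal and lipid genes included 3 that fell in R9del. Of 28 lysosomal and lipid handling genes, 14 were lower and 3 higher in all 4 pairs, 3 were called lower (9 with the block), and the median was -0.62. Over the genes that reached the filter's minimum in both genotypes, 19.5% were lower in all 4 pairs. Of the same genes 0.945% were called lower and 3.65% were called lower with the block. Lpl, the lipoprotein lipase, was at 33.8, 50.3, 63 and 41.2 CPM in R9wt and at 9.24, 5.76, 10.1 and 9.35 CPM in R9del (log2 fold change -2.45, adjusted p = 0.0277). Lamp2, a lysosomal membrane protein, was at 139, 299, 336 and 242 CPM in R9wt and at 75, 99.8, 89.6 and 94.9 CPM in R9del (log2 fold change -1.50, adjusted p = 0.0407), and Neu1, the lysosomal sialidase, at 71.3, 173, 298 and 102 CPM in R9wt and at 29.4, 48.8, 29.5 and 49.1 CPM in R9del (log2 fold change -2.04, adjusted p = 0.0495). Each of the 3 was lower in every pair without overlap, and Neu1 was highest in R9wt space D1. Ctsa, the protein that stabilises Neu1, lay at 208 to 616 CPM in R9wt and 96.7 to 164 CPM in R9del, and Hexa, a lysosomal hydrolase, at 176 to 699 CPM in R9wt and 101 to 192 CPM in R9del, with adjusted p-values of 0.0627 and 0.0694 and, with the block, 0.0442 and 0.0435. Fabp3, a fatty acid binding protein, was at 191, 2400.2, 670.1 and 697 CPM in R9wt and at 56.7, 181, 47.9 and 230.3 CPM in R9del (adjusted p = 0.0823, 0.0162 with the block). Apoe, an apolipoprotein, was far higher on the ground than in space in both genotypes, at 1579, 2807, 165 and 148 CPM in R9wt and at 1741, 1078, 69.8 and 168 CPM in R9del, and had an adjusted p of 0.796.

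Of 24 genes of cholesterol synthesis 11 were lower and 0 higher in all 4 pairs (19.5% and 19.6% of all genes), 0 were called, 4 were lower at an unadjusted p under 0.05 and 3 by DESeq2's Wald test (7.36% and 4.83% of all genes), and the median was -0.77. The pair medians were -0.86, -1.27, -0.88 and 0.02, and that of space D5 was the 1 pair median not below 0. Cyp51, a sterol demethylase, was at 242, 478, 379.9 and 216 CPM in R9wt and at 89.3, 99.3, 97.6 and 199.97 CPM in R9del (adjusted p = 0.068, 0.0398 with the block). Msmo1 lay at 146 to 346 CPM in R9wt and 56.9 to 123 CPM in R9del, Sqle, the squalene epoxidase, at 189 to 445 CPM in R9wt and 114 to 210.4 CPM in R9del and Insig1, the sterol sensor, at 23.3 to 395 CPM in R9wt and 13.2 to 64.6 CPM in R9del, with adjusted p-values of 0.0697, 0.111 and 0.205. With the block Msmo1 (adjusted p = 0.0303) and Insig1 (adjusted p = 0.0441) were called lower.

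Of 22 genes of the hypoxia response 11 were lower and 1 higher in all 4 pairs (19.5% and 19.6% of all genes), and the median was -0.70. Adm, the vasodilator peptide adrenomedullin, was called lower at 32.6, 8.7, 21.8 and 26.3 CPM in R9wt and at 5.23, 6.08, 7.78 and 3.53 CPM in R9del (log2 fold change -1.98, adjusted p = 0.0495). With the block 5 were called lower (3.65% of all genes), among them Vegfa at 8.45 to 24.5 CPM in R9wt and 3.54 to 11.6 CPM in R9del and P4ha1, a collagen prolyl hydroxylase, at 117 to 457 CPM in R9wt and 76 to 162 CPM in R9del (adjusted p = 0.0287 and 0.0392 with the block, 0.164 and 0.159 without). Of 32 genes of glycolysis and the pentose phosphate pathway 11 were lower and 2 higher in all 4 pairs (19.5% and 19.6%), and 0 were called (3 lower at an unadjusted p under 0.05, and 2 lower by DESeq2's Wald test). Ldhb, a lactate dehydrogenase, was at 754, 2361, 1089 and 853 CPM in R9wt and at 133, 445, 162 and 566 CPM in R9del (adjusted p = 0.0902, 0.0187 with the block). Hk1, a hexokinase, lay at 58.2 to 253 CPM in R9wt and 28.4 to 95.6 CPM in R9del and Eno2 at 1.88 to 8.96 CPM in R9wt and 1.33 to 2.84 CPM in R9del (adjusted p = 0.121 and 0.167, 0.00988 for Hk1 with the block). The 32 nuclear genes of oxidative phosphorylation had a median of -0.26, and 0 were called, 0 passed an unadjusted p under 0.05 with a fold of 2 and DESeq2's Wald test called 0.

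Of 27 genes of the unfolded protein and integrated stress responses 10 were lower and 4 higher in all 4 pairs (19.5% and 19.6% of all genes), 0 were called (1 higher and 3 lower at an unadjusted p under 0.05, and 3 lower by DESeq2's Wald test), and the median was -0.30. Nupr1, a stress-induced chromatin protein, was at 27.1, 109, 19 and 30.2 CPM in R9wt and at 7.98, 12.9, 5.73 and 5.67 CPM in R9del (adjusted p = 0.0573, 0.00988 with the block), and Ddit3 (Chop) at 7.49 to 70.6 CPM in R9wt and 6.41 to 11.2 CPM in R9del (adjusted p = 0.157). The 20 heat shock genes had a median of -0.01 and 0 called (1 higher and 1 lower at an unadjusted p under 0.05, and 1 lower by DESeq2's Wald test).

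Among tight junction genes, Cldn3 fell in R9del. This claudin was the 1 called gene among 30 integrin and adhesion genes, at 29.2, 49.2, 20.4 and 35.9 CPM in R9wt and at 7.61, 15.9, 7.4 and 7.29 CPM in R9del (log2 fold change -1.82, adjusted p = 0.0462). Cldn4 was at 534, 1687, 787 and 1425 CPM in R9wt and at 194, 502, 246 and 249.99 CPM in R9del and Cldn7 at 67.5, 165, 60.2 and 93 CPM in R9wt and at 17.2, 50.2, 14.6 and 15.7 CPM in R9del. Both were below R9wt without overlap in each pair, and their adjusted p-values were 0.0542 and 0.0688 (0.00844 and 0.00683 with the block). Of 29 matrix genes 9 were lower and 1 higher in all 4 pairs (19.5% and 19.6% of all genes), 0 were called (1 higher and 4 lower at an unadjusted p under 0.05, and 2 lower by DESeq2's Wald test), and the median was -0.53. Fn1, fibronectin, was at 872, 900.2, 2204 and 1324 CPM in R9wt and at 199, 397, 395 and 662 CPM in R9del (adjusted p = 0.068, 0.0164 with the block). Timp2 lay at 2.37 to 16.8 CPM in R9wt and 1.26 to 4.21 CPM in R9del and Col6a2 at 1.25 to 5.04 CPM in R9wt and 1.09 to 1.66 CPM in R9del (adjusted p = 0.176 and 0.237, 0.0335 for Timp2 with the block). Of 10 fibroblast and feeder genes Meox1, a mesoderm homeobox gene, was called higher at 1.05, 0.425, 0.41 and 0.642 CPM in R9wt and at 4.7, 2.05, 3.72 and 2.31 CPM in R9del (log2 fold change 2.33, adjusted p = 0.0437), while the list's median was -0.50 and Thy1, a surface marker of fibroblasts, lay at 11.8 to 37.8 CPM in R9wt and 13.9 to 33.1 CPM in R9del (adjusted p = 0.732). Of 35 channel and contractile genes 9 were lower and 4 higher in all 4 pairs (19.5% and 19.6% of all genes), and 0 were called (1 higher and 7 lower at an unadjusted p under 0.05, and 5 lower by DESeq2's Wald test). Of 29 Polycomb genes 0 were called (1 higher and 1 lower at an unadjusted p under 0.05, and 1 lower by DESeq2's Wald test), and of 19 genes of DNA methylation 0 (1 lower at an unadjusted p under 0.05 and by DESeq2's Wald test).

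Called genes with a symbol and a mean log2 CPM of 1 or more were ranked by fold change, with predicted Gm and Rik genes set aside. The 12 with the largest rise included Zscan4d, Zscan4f, Zscan4c, Dync1i1, Cd80, Dis3, Myc, Nrp1, Gcnt3 and Robo4. Dync1i1, a dynein intermediate chain of neurons, was at 0.57, 0.251, 0.775 and 1.12 CPM in R9wt and at 9.07, 3.87, 8.59 and 20.3 CPM in R9del (log2 fold change 3.95, adjusted p = 0.033). Nrp1, a co-receptor for semaphorins and VEGF, was at 0.82, 1, 0.943 and 1.27 CPM in R9wt and at 4.88, 1.79, 13.1 and 11.5 CPM in R9del, and Robo4, an endothelial guidance receptor, at 5.61, 0.959, 4.71 and 2.2 CPM in R9wt and at 27.4, 14.9, 32.4 and 23.4 CPM in R9del. Gcnt3, a mucin glycosyltransferase, lay at 0.927 to 5.2 CPM in R9wt and 10.3 to 24.8 CPM in R9del. The adjusted p-values of these 3 were 0.0423, 0.0414 and 0.0407.

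By the same rule, the 12 with the largest fall were Olfr57, S100a1, Lipg, Pdzk1, H2-Q2, Bhlhe41, Med12l, Rgl3, H2-Ab1, Gpc6, Dmrtc2 and Esx1. Lipg, the endothelial lipase, was at 12.4, 21.6, 19.2 and 46.5 CPM in R9wt and at 1.53, 2.6, 2 and 3.3 CPM in R9del (log2 fold change -3.40, adjusted p = 0.0311). Bhlhe41, a repressor of the circadian clock, was at 25.1, 35.9, 66.4 and 24.8 CPM in R9wt and at 2.78, 5.26, 3.49 and 4.11 CPM in R9del (log2 fold change -3.28, adjusted p = 0.0277), and Olfr57, an olfactory receptor gene, at 2.69, 20.7, 37.8 and 8.23 CPM in R9wt and at 0.289, 1.58, 0.615 and 0.411 CPM in R9del (log2 fold change -4.57, adjusted p = 0.0415). In each of these all R9del libraries lay below all R9wt libraries. S100a1 lay at 2.32 to 23.4 CPM in R9wt and 0.429 to 1.59 CPM in R9del, Pdzk1 at 7.41 to 44.2 CPM in R9wt and 1.26 to 3.15 CPM in R9del, Med12l at 3.26 to 22.9 CPM in R9wt and 1.15 to 2 CPM in R9del, Rgl3 at 3.09 to 11 CPM in R9wt and 0.501 to 1.49 CPM in R9del and Dmrtc2, a doublesex-related gene of the germ line, at 7.96 to 32.5 CPM in R9wt and 1.34 to 4.57 CPM in R9del. For Pdzk1, 39.4% of the exon bases overlap other genes.

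**Figure D4:**
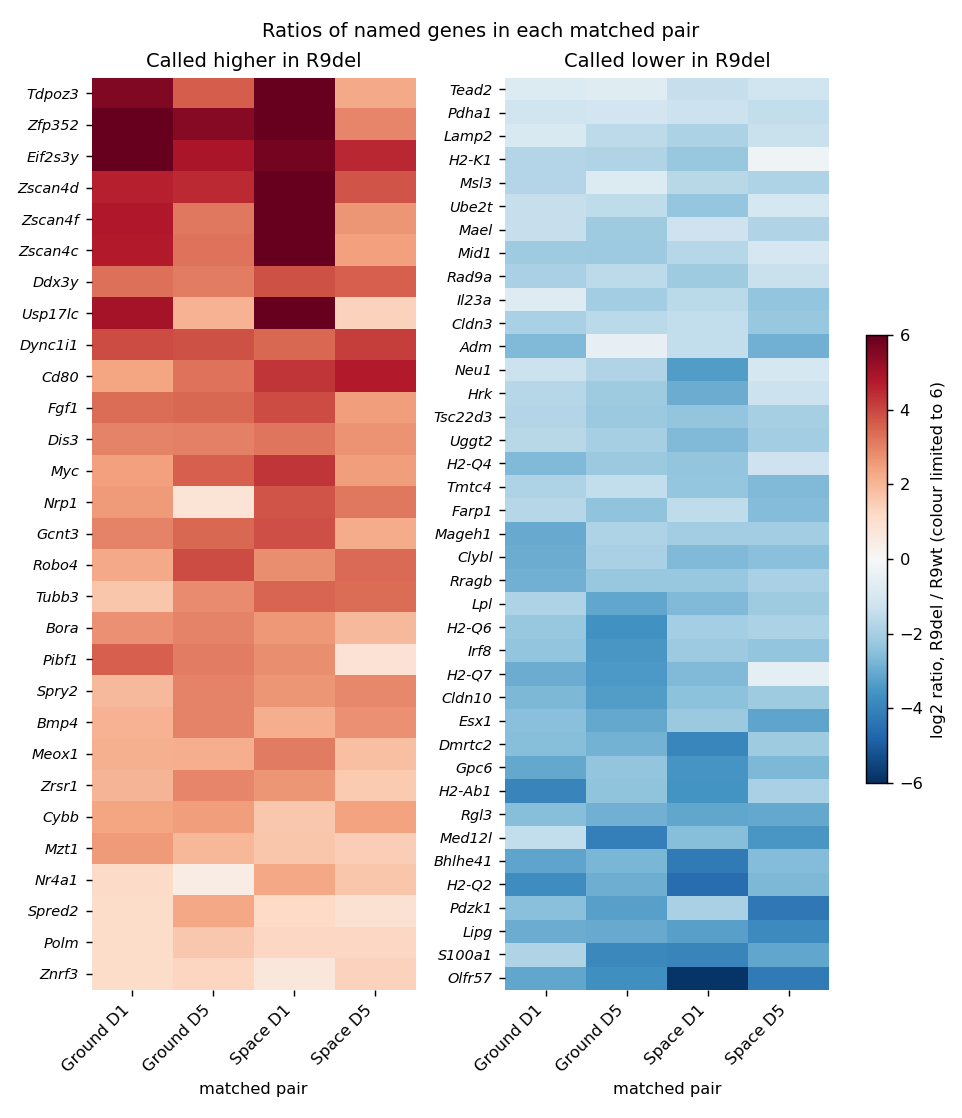
Log2 ratio of R9del to R9wt in each of the 4 matched pairs (columns) for the called genes named in the text (rows, ordered by fitted fold change), with red for higher and blue for lower in R9del and colours limited to 6. All called genes moved in 1 direction in all 4 pairs, so the cells of each panel have 1 sign by selection. The palest are H2-K1 and H2-Q7 at space D5 and Adm and Nr4a1 at ground D5. Genes that the filter kept through 1 genotype, such as Zfp352, Tdpoz3, Eif2s3y and Ddx3y, are included, and their direction is no result.

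Some of the called genes lay together on chromosomes. Genes with a mean log2 CPM of at least 1 were ordered by their mm9 position, and windows of 25 neighbouring genes were scanned for those whose median log2 ratio was beyond 0.4 on 1 side in all 4 pairs. Of 2405 overlapping windows 41 were higher and 19 were lower, on chromosomes 11 (33 windows), 4 (5), 8 (2) and 14 (1) for higher and on chromosomes X (13), 14 (4) and 7 (2) for lower. The regions below were drawn after these windows had been seen, so their counts are descriptions. Over the 13046 genes of this mean level, 0.851% were called higher and 1.03% lower, and 21.1% were higher and 19.9% lower in all 4 pairs. Copy number was not measured, and its part in these differences was not tested.

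The proximal part of chromosome 11 (chr11:3025907-69509600) held 410 such genes with a median log2 fold change of 0.47, and pair medians of 0.39, 0.43, 0.57 and 0.54. In it 22 genes (5.37%) were called higher and 1 lower, and 206 were higher in all 4 pairs. The other 658 genes of the chromosome had a median of 0.09, and 3 (0.456%) were called higher. Znrf3 (chr11:5176327-5344850), Polm (chr11:5727863-5738019), Spred2 (chr11:19824378-19924029), Zrsr1 (chr11:22873215-22876498), Etaa1 (chr11:17838759-17853878) and Trp53 (chr11:69393861-69405375), described above, all lie here, as do Hus1 (chr11:8893140-8911194), which did not pass the test, and Grb10 (chr11:11830511-11938686), which was lower in each pair.

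Chromosome X ended in a stretch of lower genes. From Tmem29 to the last gene (chrX:146832316-166443668) 75 genes had a median of -0.99 and pair medians of -1.14, -0.80, -0.94 and -0.89. Of these 15 were called lower, against 1.03% of all genes of this level, 56 were lower in all 4 pairs and 0 were higher in all 4. The other 373 genes of the chromosome had a median of -0.10, with 8 called lower. Pdha1, a subunit of pyruvate dehydrogenase, was at 484, 421, 686 and 630.03 CPM in R9wt and at 211, 189, 282 and 229 CPM in R9del (log2 fold change -1.29, adjusted p = 0.0398). Msl3, a chromodomain protein, was at 17.4, 14, 18.7 and 24.9 CPM in R9wt and at 5.15, 7.92, 5.96 and 6.8 CPM in R9del (log2 fold change -1.54, adjusted p = 0.0407). Smc1a, a cohesin subunit, lay at 259.6 to 467 CPM in R9wt and 147 to 204 CPM in R9del, Kdm5c, a histone demethylase, at 92.4 to 366 CPM in R9wt and 77.2 to 163 CPM in R9del, Mid1, a ubiquitin ligase of microtubules, at 8.04 to 14.8 CPM in R9wt and 1.84 to 4.59 CPM in R9del, Mageh1 at 44.9 to 100.03 CPM in R9wt and 10.9 to 12.5 CPM in R9del and Rragb, a GTPase of the amino acid sensor of mTORC1, at 12.8 to 33.9 CPM in R9wt and 2.6 to 4.53 CPM in R9del. These genes were picked after their values were seen. Among them Smc1a (adjusted p = 0.0846) and Kdm5c (adjusted p = 0.202) were not called, and Kdm5c overlapped between genotypes. The called genes Esx1 (chrX:133649936-133656622), Lamp2 (chrX:35754534-35809631) and Tsc22d3, a glucocorticoid-induced gene at 8.81 to 28.3 CPM in R9wt and 2.58 to 5.96 CPM in R9del, lie outside the stretch. No gene of chromosome X with this mean level was called higher, against 23 of 448 called lower, and 15 were higher at an unadjusted p under 0.05 with a fold of 2. Cybb (chrX:9012378-9064897), described above, was called higher and lies on the X, but its mean level was below this limit.

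Chromosome 14 held a stretch of each kind. Mzt1, Bora, Dis3 and Pibf1, which follow each other at chr14:99433763-99653712, were all called higher, with a median log2 fold change of 2.51. Bora, an activator of the mitotic kinase Aurora A, was at 82.7, 73.2, 100.5 and 126 CPM in R9wt and at 560.00, 579.9, 616 and 489 CPM in R9del, with an adjusted p of 0.0136, the smallest of all genes tested. Dis3, the nuclease of the exosome, was at 111, 69.2, 64.9 and 52 CPM in R9wt and at 872, 568, 592 and 337 CPM in R9del (log2 fold change 3.0, adjusted p = 0.0277). Mzt1, of the gamma-tubulin ring, was at 144, 159, 141 and 134 CPM in R9wt and at 843, 631, 449 and 378 CPM in R9del and Pibf1, a centrosome protein, at 10.2, 15.2, 15.8 and 35.8 CPM in R9wt and at 123, 129, 109 and 66.2 CPM in R9del. The R9del libraries exceeded R9wt without overlap in all 4 genes. Their neighbour Klf5 (chr14:99697910-99712624), a naive pluripotency factor, was higher in every pair at 269, 173, 36.1 and 59.5 CPM in R9wt and at 668, 650.5, 121 and 112 CPM in R9del, but its groups overlapped, since both ground libraries of R9wt exceeded both space libraries of R9del (adjusted p = 0.295, 0.0122 with the block). Mzt1, Bora, Pibf1 and the genes of the next stretch other than Gpc6 were named after their values were seen.

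From Gpc6 to the end of chromosome 14 (chr14:117324519-123383257) 23 genes had a median of -1.48 and pair medians of -1.38, -1.30, -1.54 and -1.64. Here 10 (43.5%) were called lower, against 1.03% of all genes of this level, 19 were lower in all 4 pairs and 0 were higher in all 4. Gpc6, a glypican, was at 9.51, 9.04, 13.3 and 14.9 CPM in R9wt and at 1.09, 1.74, 1.1 and 2.29 CPM in R9del (log2 fold change -2.91, adjusted p = 0.0277). Clybl, a mitochondrial enzyme, was at 122, 151, 134 and 170.1 CPM in R9wt and at 15.3, 39, 21.7 and 30.2 CPM in R9del (log2 fold change -2.44, adjusted p = 0.0277). Tmtc4 lay at 35.9 to 96.3 CPM in R9wt and 10.3 to 15.2 CPM in R9del, Farp1 at 11.2 to 42.7 CPM in R9wt and 3.45 to 6.93 CPM in R9del, and Uggt2 at 4.14 to 8.68 CPM in R9wt and 1.31 to 1.87 CPM in R9del, each without overlap. Cldn10 lies here too, at 0.649 to 1.38 CPM in R9wt and 0.067 to 0.229 CPM in R9del, but its low mean level kept it out of the 23. Its lowest R9del library was below the filter's minimum of 0.15 CPM. The filter thus kept Cldn10 through R9wt, and its direction is no result. The remaining 409 genes of the chromosome had a median of -0.03, with 3 called higher and 1 lower. On chromosome 17 the region of the H2 genes (chr17:34111731-37126482) held 93 genes, of which 10 (10.8%) were called lower and 1 (1.08%) higher, against 1.03% and 0.851% of all genes of this level, while its median was -0.10. Smaller regions with a median above 0 were 45 genes at chr4:143947845-147534591, with a median of 0.69 and 1 gene called lower, and 26 genes from Taf5l to the end of chromosome 8 (chr8:126520218-131257100), with a median of 0.51 and Nrp1 as the called gene. The 30 genes from Vps33b to Efl1 on chromosome 7 had a median of -0.42.

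**Figure D5:**
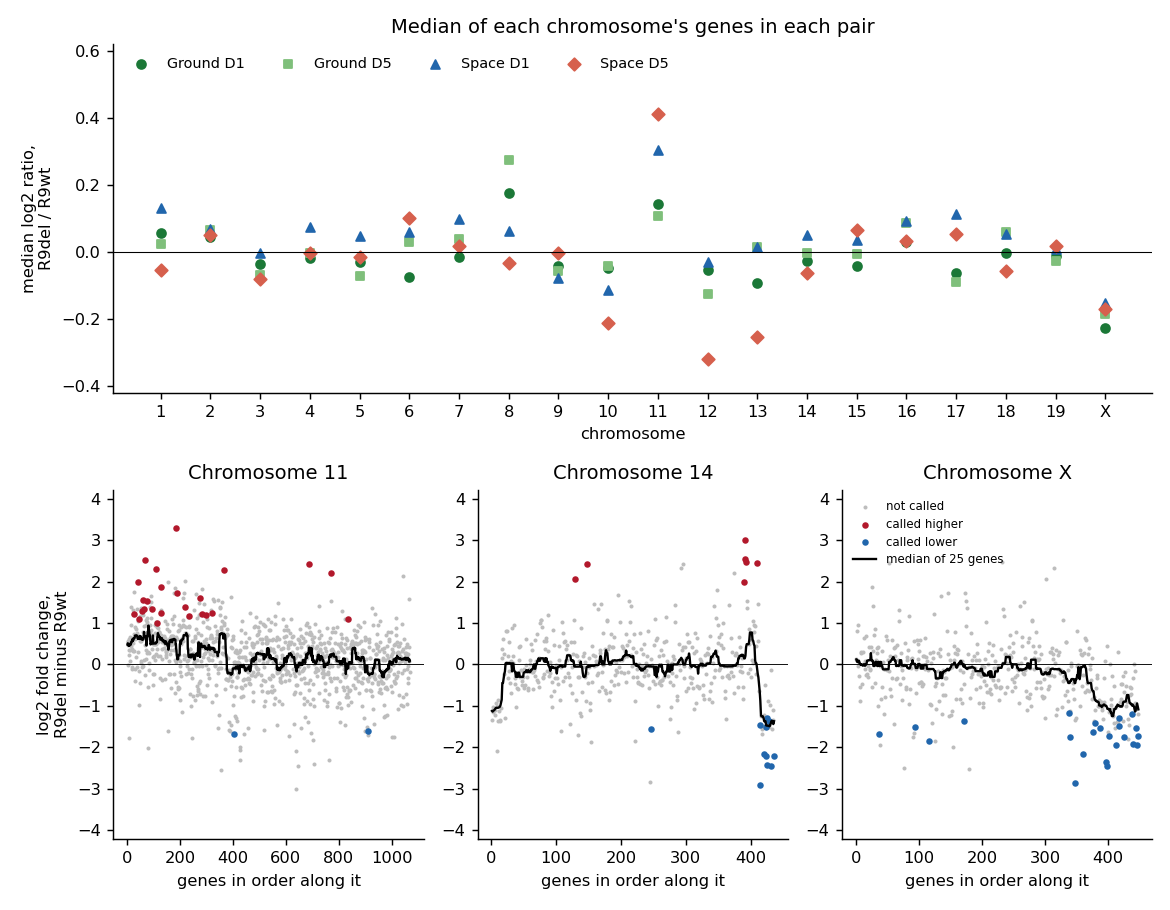
Top, median log2 ratio of R9del to R9wt of the genes of each chromosome (horizontal axis) in the 4 pairs. Bottom, fitted log2 fold change of each gene in its order along chromosomes 11, 14 and X, with called genes in red and blue and a black line for the running median of 25 genes (fewer at the ends); the line stands above 0 over the first genes of chromosome 11 and below 0 over the first and the last genes of chromosome 14 and the last of chromosome X.

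Eif2s3y and Ddx3y, genes of the Y chromosome, were kept by the filter through R9del, so their direction is no result. Eif2s3y, a translation factor gene, had 0, 9, 0 and 0 counts in R9wt and 134, 278, 103 and 36 counts in R9del, and Ddx3y, an RNA helicase gene, 4, 4, 0 and 0 and 46, 43, 26 and 18 counts. Both reached the filter's minimum in all 4 R9del libraries and in 0 of the R9wt libraries, so they were tested only because R9del was high, and no p or fold is given. No R9wt library held more than 9 counts of either. Xist, the RNA that silences an X chromosome, was at 16.1, 3.64, 4.29 and 1.18 CPM in R9wt and at 7.51, 5.24, 6.4 and 4.28 CPM in R9del and overlapped between genotypes (adjusted p = 0.944). Of the 5 tested genes of this list the other members were not called.

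The question whether the effect of the deletion differed between space and ground, or between D1 and D5, was tested by the interaction of genotype with each. With edgeR's quasi-likelihood test 0 genes passed an adjusted p under 0.05 for location, 620 (3.03%) passed an unadjusted p under 0.05, and DESeq2's Wald test called 23. For day 0 passed, and 913 (4.46%) passed an unadjusted p under 0.05. With 1 library per condition, these tests rest on the spread that remains after the other factor is fitted. The numbers of genes at least 2-fold higher or lower were 2686 and 2393 in the ground D1 pair, 3695 and 3133 at ground D5, 3744 and 3551 at space D1 and 2797 and 2860 at space D5, and the SD of the ratios was 1.13, 1.29, 1.42 and 1.18.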

How the data were processed

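The series holds mRNA sequencing of 8 mESC libraries, 4 R9wt and 4 R9del. The authors aligned paired reads to mm9, with TopHat 2.0.9 per the submitters' processing notes, and deposited 1 table of whole-number counts per Ensembl gene. The counting program, annotation and use of strand are not given in the sources used here. Counts of 4, 7 and 10 were more frequent than their neighbours in every library, so 1 unit may not equal 1 read. Symbols and mm9 positions came from GENCODE M1 (32722 of 50686 identifiers, 64.6%), and 2619 symbols were updated through RefSeq synonyms.

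Genes were filtered with filterByExpr (minimum count 10), scaled by TMM and tested in R 4.3.3 with edgeR 4.0.16's quasi-likelihood test of R9del against R9wt over all genes tested, with Benjamini-Hochberg adjustment. Log2 CPM used a prior count of 2. Genes were called at an adjusted p under 0.05 with a fold of 2 or more. Which genes reached the filter's minimum in all 4 libraries of each genotype was counted after the data had been seen. The scripts were tested on simulated data. Alternatives were DESeq2 1.42.0 (size factors, and its Wald test), library size alone, other filters, edgeR's exact test, location and day as covariates, a block for each matched pair, and fits that left out 1 library. Limma 3.58.1 was loaded by edgeR. The labels' location and day pair the libraries, and paired libraries deviated together from their group means (correlations 0.489, 0.356, 0.349 and 0.352, against a mean of -0.129 for other pairings). A count of 0 allows up to 3 counts, which covers counting error only. Most named genes are list members or belong to the 12 with the largest rise or the 12 with the largest fall. Both sets of 12 were drawn from called genes with a symbol and a mean log2 CPM of 1 or more, with predicted Gm and Rik genes set aside. Without a symbol or predicted were 27 of the 112 rising and 7 of the 135 falling genes that the rule draws on. Not every gene this allows is named. Others, among them Irf8, H2-Q6 and genes of the chromosome regions, were named after their values were seen. The comparison, gene lists and chromosome regions were chosen with earlier results of these data known. List members without a value are not analysed here. A few genes that the naming rule selects are not reported here.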

Additional observations from a re-analysis of the deposited data

Results flagged for a closer look

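In 21 of 364 groups of 4 libraries (182 named genes in both genotypes) 1 library stood apart from the other 3 by Dixon's criterion, and chance gives about 1 in 20 groups. In R9del ground D5 the level was 10.5 CPM for Dppa3, 14.1 CPM for Eomes, 29.2 CPM for Myc, 133 CPM for Ube2t, 5.76 CPM for Lpl, 15.9 CPM for Cldn3, 50.2 CPM for Cldn7 and 10.3 CPM for Gcnt3. The other R9del libraries lay at 2.94 to 3.5, 4.62 to 5.25, 67.4 to 79.8, 70.03 to 77.7, 9.24 to 10.1, 7.29 to 7.61, 14.6 to 17.2 and 23 to 24.8 CPM. In R9del space D5 the level was 211 CPM for Zfp42, 14.6 CPM for Gata6, 1.93 CPM for Il23a, 200 CPM for Cyp51 and 1.87 CPM for Uggt2, and the other R9del libraries lay at 712 to 857, 4.22 to 4.62, 2.99 to 3.24, 89.3 to 99.3 and 1.31 to 1.34 CPM.

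Among R9wt libraries, ground D1 stood apart with about 1770 CPM for Pou5f1, 12.9 CPM for Neil3 and 100.0 CPM for Mageh1. The other R9wt libraries lay at 963 to 991, 23.9 to 26.4 and 44.9 to 47.6 CPM. Ground D5 stood apart with 0.0981 CPM for Eif2s3y, 11 CPM for Dusp6 and 68 CPM for Nr4a1. The other R9wt libraries lay at 0, 59.4 to 69.1 and 55.7 to 56.5 CPM. Space D1 had 0.365 CPM for Hus1b against 0.752 to 0.796 CPM, and space D5 0.0494 CPM for Tdpoz3 against 0.

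Hus1 went in opposite directions by day: its mean log2 ratio was -0.10 at D1, where both pairs were lower in R9del, and 0.75 at D5, where both were higher. This rests on 2 pairs a day. The interaction of genotype with day in edgeR's quasi-likelihood test was 0.86 on the log2 scale, with an unadjusted p of 0.0712 and an adjusted p of 1.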

How the results depend on the processing

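The 242 genes called higher and 174 called lower became 94 and 63 without a filter on low counts, 60 and 65 among genes with a mean above 10 CPM, 742 and 660 with the matched pairs as a replicate block, 608 and 625 with location and day as covariates, 850 and 928 in DESeq2's Wald test and 725 and 693 in edgeR's exact test. Leaving out 1 library gave 0 to 247 higher and 0 to 288 lower. At an unadjusted p under 0.05, 2161 genes were higher without a filter, and 316 were higher and 513 lower among genes with a mean above 10 CPM, where 109 were at least 2-fold higher and 100.0 at least 2-fold lower in all 4 pairs. For location, DESeq2's Wald test with day as a covariate called 23 genes against 0. All of the 416 calls that were tested kept their sign under every alternative. The block changed the calls of single genes only where its value stands beside them, and of Plagl1 and Usp17la, which the filter kept through R9del.

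Among named genes without a call, leaving out 1 library turned the sign of Rad9b (-0.15 to 0.27), Chek1 (-0.0446 to 0.19), Nanog (-0.083 to 0.62), Sox2 (-0.16 to 0.39), Esrrb (-0.57 to 0.0249), Fgf5 (-0.11 to 1.97), Gata6 (-0.35 to 1.14), Plac1 (-2.77 to 2.25), H19 (-0.84 to 0.98), Meg3 (-0.13 to 0.47), Xist (-0.45 to 0.92) and Apoe (-1.40 to 0.26). The block and the covariates turned Plac1 (1.19 and 0.15) and Xist (0.46 and 0.45). Causes were not tested. With 1 library per condition, low genes and differences within a condition are the least certain.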
